A study of Mus musculus with 14 samples.

Results

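The genes described here were 35 members of glucose metabolism, chosen by name and grouped by pathway step: 3 glucose transporters, 9 genes from hexokinase to aldolase (with the gluconeogenic Fbp1), 6 from the triose phosphates to pyruvate, 6 of lactate and pyruvate fate, 6 of the pentose phosphate pathway and 5 of serine synthesis and one-carbon transfer. All 35 were found among the 55414 identifiers of the count table. Their messages were sequenced from granulosa cells (GCs), the somatic cells around the oocyte, of antral follicles punctured from ovaries of female mice. There were 4 libraries from db/db mice (B6.BKS(D)-Leprdb/J, deficient in the long leptin receptor), 4 from their controls (CT db), 3 from ob/ob mice (B6.Cg-Lepob/J, lacking functional leptin) and 3 from theirs (CT ob). Ovaries were taken at 12 weeks of age. The controls were lean littermates labelled as wild type, although the column names of the controls read as heterozygous. Both mutations act in the whole body, so GCs were not the only cells affected. No source used here ties a library to 1 animal, and p-values measure the spread between these libraries.

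Glycolysis splits glucose into pyruvate, and lactate dehydrogenase turns pyruvate into lactate when NAD+ has to be regenerated. The oxidative pentose phosphate branch yields NADPH and ribose, and 3-phosphoglycerate can leave glycolysis towards serine, which feeds folate one-carbon transfer. Oocytes take up glucose poorly, and GCs are known to supply them with pyruvate and lactate.

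The libraries held 2204686 to 8367593 counts. Levels are given as CPM, counts scaled to a common library size with TMM factors, and 3 counts, taken as the smallest detectable number, came to 0.369 to 1.30 CPM. The 35 genes together took 0.527 to 1.5% of the counts of a library. Granulosa markers summed to 12071 to 30268 CPM, with Inha at 3255 or more and Foxl2 at 53.7 or more in every library. Of the other cell types, the 6 adipocyte markers summed to at most 4.26 CPM, the 6 endothelial markers to at most 48.3, the 9 blood and immune markers to at most 84.5, the 9 theca and luteal markers to 211 to 1373 and the 12 oocyte markers to 42.3 to 1310. The oocyte sum was 42.3 to 318 CPM in the db model and 115 to 1310 in the ob model. CT ob library 3 stood apart, with 24.5% of its counts on the 18S ribosomal RNA gene Rn18s-rs5 against 1.10 to 12.8% in the others.

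The promoters of 6 genes are shown because the results turn on them: Pgk1 and Shmt2 varied with Ldha between libraries of a group, Ldhb did not, and G6pdx and Phgdh differed between the control groups. Each line gives the 250 bases before the RefSeq start nearest the canonical transcript's, 5′ to 3′ on the gene's strand; these starts were 0 to 35 bases apart for Pgk1, Shmt2, Phgdh and Ldha, 225 for Ldhb and 333 for G6pdx. The sequences are from RefSeq (GRCm38.p6) and were placed in GRCm39 by a single exact match: Ldha at chr7:46494978-46495227 (plus strand), Pgk1 at chrX:105230456-105230705 (plus), Shmt2 at chr10:127358314-127358563 (minus), Ldhb at chr6:142453684-142453933 (minus), G6pdx at chrX:73472487-73472736 (minus) and Phgdh at chr3:98247286-98247535 (minus). Capitals mark ACGTG and GCGTG on either strand, the core letters that hypoxia-inducible factors can bind.
Ldha: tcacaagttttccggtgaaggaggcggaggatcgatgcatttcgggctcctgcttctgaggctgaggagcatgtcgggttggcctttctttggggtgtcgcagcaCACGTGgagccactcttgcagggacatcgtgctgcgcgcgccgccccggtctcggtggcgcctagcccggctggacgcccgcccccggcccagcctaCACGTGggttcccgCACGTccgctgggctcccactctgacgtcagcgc
Pgk1: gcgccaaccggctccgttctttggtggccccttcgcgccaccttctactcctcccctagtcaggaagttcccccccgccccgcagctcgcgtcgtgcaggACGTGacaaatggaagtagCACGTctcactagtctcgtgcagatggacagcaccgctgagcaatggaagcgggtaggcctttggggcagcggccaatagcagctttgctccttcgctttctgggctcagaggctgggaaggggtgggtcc
Shmt2: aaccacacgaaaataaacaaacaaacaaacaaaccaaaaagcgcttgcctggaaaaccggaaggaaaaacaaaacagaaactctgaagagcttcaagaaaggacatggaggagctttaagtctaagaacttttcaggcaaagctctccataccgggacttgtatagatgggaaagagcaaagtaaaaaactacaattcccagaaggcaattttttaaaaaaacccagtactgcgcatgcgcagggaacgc
Ldhb: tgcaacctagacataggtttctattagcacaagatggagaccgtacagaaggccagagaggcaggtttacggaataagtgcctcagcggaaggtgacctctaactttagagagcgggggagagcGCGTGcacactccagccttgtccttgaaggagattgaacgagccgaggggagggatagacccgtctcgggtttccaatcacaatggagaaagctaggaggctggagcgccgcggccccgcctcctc
G6pdx: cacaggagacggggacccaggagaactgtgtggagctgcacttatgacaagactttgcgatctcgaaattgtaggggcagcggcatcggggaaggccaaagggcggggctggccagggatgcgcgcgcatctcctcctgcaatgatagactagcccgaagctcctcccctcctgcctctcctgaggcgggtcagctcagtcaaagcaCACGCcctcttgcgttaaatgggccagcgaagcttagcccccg
Phgdh: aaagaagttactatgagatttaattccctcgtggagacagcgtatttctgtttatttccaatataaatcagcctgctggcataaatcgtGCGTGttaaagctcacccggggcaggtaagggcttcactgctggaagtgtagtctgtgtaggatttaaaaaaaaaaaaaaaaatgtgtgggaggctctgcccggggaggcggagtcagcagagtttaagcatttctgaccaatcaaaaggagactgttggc
The Ldha window held ACGTG 5 times on the 2 strands, counting each strand's reading of the palindrome CACGTG, which occurred 2 times and is also an E-box. The Pgk1 window held it 2 times, Ldhb, G6pdx and Phgdh held GCGTG 1 time each, and Shmt2 held neither. Either word, which share CGTG but no full match, was found in 38.6% of 32851 mouse promoter windows of this length, which held all starts of 27025 genes. It was found in 28 of the 33 windows of the listed genes, 1 per gene (Slc2a3 and Slc2a4 were not matched). ACGTG was in 27.3% of these 33 against 16.6% of all windows, and GCGTG in 72.7% against 28.2%. The 2 sets of windows were not matched for GC content. Either word occurred in 9 of the 12 genes that followed Ldha as described further on (Ldha included) and in 19 of the other 21. These are matches of letters in a window and not binding sites.

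Levels of different genes were compared only per length, as counts per kilobase of the union of exons, scaled to the same sum over all genes in each library, as TPM are. Ldha, which makes the lactate dehydrogenase subunit that favours lactate formation, was the highest gene, with a mean level of 1870 ± 655 (SD over the 14 libraries). Tpi1 (triose phosphate isomerase) followed at 1361 ± 581, Aldoa (aldolase) at 778 ± 290 and Gapdh at 485 ± 177. The SDs of Ldha and Tpi1 overlapped, as did those of Aldoa and Gapdh. These SDs are spreads between libraries and do not show how often the order held within a library. Glucose transport rested on Slc2a1 (GLUT1) at 36.7 ± 11.9. Slc2a3 (GLUT3), with 0 to 16 counts, and the insulin-responsive Slc2a4 (GLUT4), with 0 to 9 counts, were at or near the limit of detection, and both failed the filter on low counts.

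**Figure D1:**
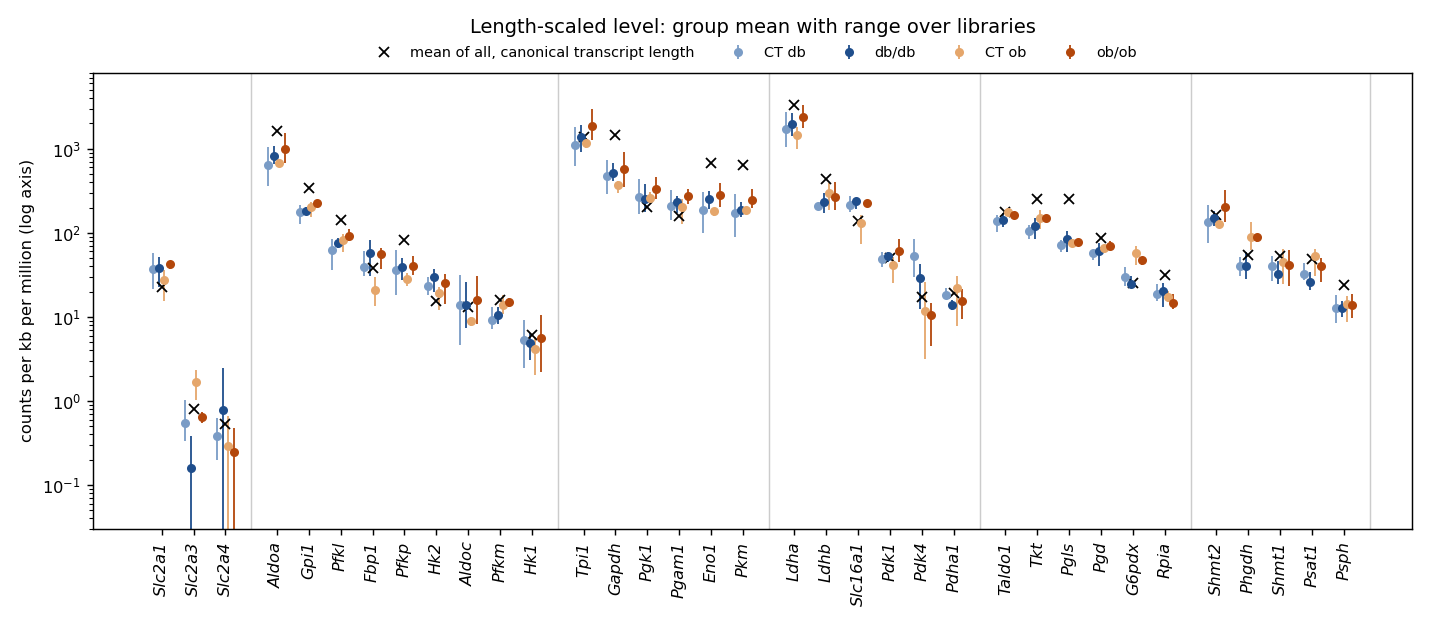
Length-scaled level of each gene in scaled counts per kilobase of exons on a log axis, with genes grouped by pathway step. Points are group means, lines span the lowest to the highest library, and crosses are the mean of all libraries with the length of the canonical transcript; Ldha, Tpi1 and Aldoa are the highest by exon length, and Slc2a3 and Slc2a4 lie near 1 or below.

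Libraries of a group are numbered in the order of the table's columns. Slc2a1 was at 30.7, 43.9, 55.0 and 36.2 CPM in db/db, at 50.9, 25.6, 67.3 and 34.9 in CT db, at 45.0, 48.0 and 46.8 in ob/ob and at 33.5, 38.9 and 28.6 in CT ob. Slc2a3 was at 0, 0.430, 0 and 0.625 CPM in db/db, 1.97, 0.639, 0.824 and 0.819 in CT db, 1.04, 1.25 and 1.11 in ob/ob and 1.72, 3.99 and 5.10 in CT ob. Slc2a1 made up 90 to 100% of the length-scaled sum of both in each library, and thus prevailed in all groups.

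Among the early steps, Hk1, the widespread hexokinase, was at 7.67, 10.8, 13.0 and 8.12 CPM in db/db, 7.04, 5.54, 20.3 and 14.5 in CT db, 7.25, 20.9 and 5.17 in ob/ob and 11.3, 9.47 and 7.14 in CT ob. Hk2, the inducible one, was at 47.3, 58.1, 69.7 and 56.2 CPM in db/db, 47.8, 37.9, 45.1 and 65.2 in CT db, 56.1, 55.5 and 32.1 in ob/ob and 41.4, 42.4 and 39.8 in CT ob. Hk1 was the smaller in all 14 libraries, with 10.9 to 29.8% of their length-scaled sum, or 19.1 to 45.1% with the length of the canonical transcript.

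The phosphofructokinase genes encode the committed step of glycolysis. Pfkl was at 242, 217, 255 and 204 CPM in db/db, 251, 118, 273 and 179 in CT db, 228, 322 and 275 in ob/ob and 278, 275 and 300 in CT ob. Pfkp was at 131, 132, 187 and 159 CPM in db/db, 140, 76.5, 259 and 125 in CT db, 128, 195 and 141 in ob/ob and 124, 102 and 153 in CT ob. Pfkl exceeded Pfkp per length in each library, with 57.4 to 77.4% of their sum. Pfkm was at 30.7, 16.3, 26.8 and 17.5 CPM in db/db, 19.7, 18.7, 29.4 and 16.9 in CT db, 28.8, 34.3 and 31.4 in ob/ob and 37.0, 22.2 and 43.2 in CT ob, and took 16.8 to 35.4% of the sum with Pfkp, or 10.6 to 24.3% with the canonical length.

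Aldoa was at 1028, 953, 1339 and 869 CPM in db/db, 796, 486, 1399 and 835 in CT db, 834, 1897 and 990 in ob/ob and 833, 807 and 1460 in CT ob. Its relative Aldoc was at 10.7, 15.1, 27.7 and 7.50 CPM in db/db, 10.7, 5.54, 36.8 and 12.8 in CT db, 8.80, 32.4 and 10.3 in ob/ob and 10.3, 9.47 and 14.3 in CT ob. Aldoa held 97.1 to 99.0% of their length-scaled sum, and both were highest in the same library of the db/db, CT db, ob/ob and CT ob groups.

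Tpi1 was at 733, 880, 1215 and 760 CPM in db/db, 714, 436, 1259 and 717 in CT db, 748, 1873 and 958 in ob/ob and 691, 858 and 1134 in CT ob. Ldhb, whose subunit favours the return of lactate to pyruvate, was at 383, 217, 174 and 246 CPM in db/db, 243, 218, 247 and 251 in CT db, 376, 191 and 244 in ob/ob and 392, 313 and 337 in CT ob. Ldha held 80.5 to 94.7% of the length-scaled sum of Ldha and Ldhb, and Ldhb was lowest in db/db, ob/ob and CT ob in the library in which Ldha was highest.

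Taldo1 (transaldolase), the highest pentose phosphate gene by exon length, was at 81.4, 80.9, 96.6 and 71.9 CPM in db/db, 104, 63.9, 97.3 and 82.2 in CT db, 77.3, 98.4 and 104 in ob/ob and 102, 93.2 and 174 in CT ob. In serine synthesis, Psat1 (phosphoserine aminotransferase) was at 57.5, 26.7, 34.2 and 30.6 CPM in db/db, 66.7, 43.5, 44.2 and 42.3 in CT db, 55.0, 34.2 and 80.0 in ob/ob and 82.6, 86.5 and 71.7 in CT ob. Phgdh, whose values follow with the comparisons, held 48.5 to 78.1% of the length-scaled sum with Psat1.

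The serine hydroxymethyltransferases pass a carbon from serine to folate. Shmt2, the mitochondrial one, was at 144, 145, 171 and 128 CPM in db/db, 122, 78.4, 218 and 150 in CT db, 125, 297 and 150 in ob/ob and 113, 135 and 186 in CT ob. Shmt1, the cytosolic one, was at 61.0, 34.8, 38.1 and 65.6 CPM in db/db, 88.9, 64.8, 43.1 and 72.3 in CT db, 82.8, 33.6 and 68.7 in ob/ob and 94.1, 70.8 and 62.5 in CT ob. Shmt2 held 65.5 to 93.3% of their length-scaled sum, and Shmt1 was lowest in the libraries of CT db, ob/ob and CT ob in which Shmt2 was highest.

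The other genes were all detected in every library. Over the 14 libraries Gpi1 (glucose phosphate isomerase) ranged from 282 to 533 CPM, Pkm (pyruvate kinase) from 307 to 1020, Eno1 (enolase) from 292 to 1016, Gapdh from 514 to 1484, Pgk1 (phosphoglycerate kinase) from 86.6 to 248 and Pgam1 (phosphoglycerate mutase) from 77.3 to 174. Pdk1, a pyruvate dehydrogenase kinase, ranged from 86.9 to 168 CPM. In the pentose phosphate pathway Tkt (transketolase) ranged from 222 to 465 CPM, Pgd from 91.2 to 194, Pgls from 76.7 to 174 and Rpia (ribose-5-phosphate isomerase) from 15 to 33.2, and the serine phosphatase gene Psph from 16.0 to 34.3.

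The order, like some shares, depended on the length used. With the canonical transcript, Gapdh at a mean of 1453 passed Tpi1 at 1391, and Pgls (6-phosphogluconolactonase) at 252 passed Taldo1 at 178 as the highest pentose phosphate gene. The longest transcript placed Tkt first there. Ldha, Aldoa, Slc2a1 and Shmt2 were the highest of their steps by all 3 lengths. Processed pseudogenes and retrogene copies of 9 listed genes took at most 0.656% of the joint counts (Pgam1) in any library.

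The first comparison asked whether loss of the leptin receptor went with altered expression of these genes. None of the 33 genes tested passed the adjusted threshold of edgeR's quasi-likelihood test between db/db and CT db, where 1 of 11317 genes (0.00884%) did. At an unadjusted p under 0.05 there were 2 of 33 genes (6.06%), against 7.59% of all genes. The median log2 difference of the 33 genes was 0.00, and that of all genes was 0.01.

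Ldha was at 1936, 1880, 2853 and 1989 CPM in db/db and at 2021, 1252, 3287 and 1741 CPM in CT db. The groups overlapped, with the highest and the lowest library both in CT db, and the log2 difference was 0.06 ± 0.264 (SE; adjusted p = 0.970). Gapdh (0.01 ± 0.247), Pkm (-0.00 ± 0.277), Slc16a1 (0.00 ± 0.147) and Shmt2 (0.05 ± 0.251) likewise had log2 differences well within their SE.

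Pdha1, the catalytic alpha subunit of pyruvate dehydrogenase, was at 20.9, 15.9, 14.7 and 18.7 CPM in db/db and at 30.1, 22.8, 21.7 and 23.8 CPM in CT db. All db/db libraries lay below all CT db libraries, as 4.13% of all genes tested did in one direction or the other, and Pdha1 was the 1 listed gene of 33 without overlap. Its log2 difference was -0.48 ± 0.194 (SE), with an unadjusted p of 0.0283 and an adjusted p of 0.605 in edgeR. The kinase gene Pdk4, whose product switches pyruvate dehydrogenase off, was at 43.1, 17.6, 10.8 and 35.6 CPM in db/db and at 29.0, 46.4, 48.6 and 83.8 CPM in CT db. These groups overlapped, and the log2 difference was -0.95 ± 0.400 (unadjusted p = 0.0359, adjusted p = 0.632). Its difference ranged from -1.26 to -0.62 with each library left out. Pdk4 passed the adjusted threshold only when no filter on low counts was used (adjusted p = 0.000714), a setting under which 270 genes passed.

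The same question was put to leptin deficiency. Between ob/ob and CT ob 0 of 33 listed genes and 0 of 12425 genes (0%) passed the adjusted threshold in edgeR, and 86 genes did in DESeq2. At an unadjusted p under 0.05 there were 4 of 33 (12.1%), against 8.16% of all genes. Among the tested genes, groups did not overlap for those same 4 (12.1%), against 15.7% of all genes. The median log2 difference was 0.10 for the listed genes (-0.10 without ob/ob library 2) and -0.04 for all.

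Fbp1, the gluconeogenic fructose bisphosphatase that opposes phosphofructokinase, was at 32.1, 34.2 and 23.5 CPM in ob/ob and at 10.5, 15.9 and 12.6 CPM in CT ob. All ob/ob libraries were higher, by 1.20 ± 0.279 on the log2 scale, with an unadjusted p of 0.00245 and an adjusted p of 0.539. DESeq2 (adjusted p = 0.0459) and edgeR without the filter (adjusted p = 0.0306) placed it past the threshold. Slc16a1, the monocarboxylate transporter MCT1 that carries lactate and pyruvate, was at 245, 296 and 292 CPM in ob/ob and at 196, 184 and 154 CPM in CT ob. The log2 difference was 0.64 ± 0.183 (unadjusted p = 0.00789, adjusted p = 0.539). All 3 ob/ob libraries exceeded all 3 CT ob libraries for Slc2a1 as well, with means of 46.6 ± 1.51 against 33.7 ± 5.16 CPM (SD) and a log2 difference of 0.46 ± 0.197 (unadjusted p = 0.0458, adjusted p = 0.611).

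G6pdx, glucose-6-phosphate dehydrogenase at the entry of the pentose phosphate pathway, went the other way, at 69.2, 60.6 and 86.3 CPM in ob/ob against 100, 94.4 and 105 CPM in CT ob. Its log2 difference was -0.48 ± 0.190 (unadjusted p = 0.0347, adjusted p = 0.604). All 6 pentose phosphate genes had negative estimates here (median -0.35) and all 6 genes from the triose phosphates to pyruvate had positive ones (median 0.29), and none of these 12 passed the adjusted threshold. These signs rested on single libraries. Without CT ob library 3, Pgd and Pgls turned positive (pentose phosphate median -0.09), and without ob/ob library 2, Tpi1, Gapdh, Pgk1 and Pkm turned negative (median -0.06). Without CT ob library 2, Pgk1 turned negative. In the same comparison 10 of 13 granulosa markers had positive estimates (median 0.55), while Amh, Foxl2 and Amhr2 had negative ones. Without ob/ob library 2, 8 were positive and 5 negative (median 0.36). The gap junction gene Gja1 was at 11013 ± 1086 CPM in ob/ob against 6072 ± 751 in CT ob (n = 3 each). The aromatase gene Cyp19a1 was at 44.8 ± 34.5 CPM in ob/ob against 14.8 ± 3.79 in CT ob (n = 3 each). The part of these markers in the values above was not tested, and in bulk samples fewer cells of a type and less RNA per cell cannot be told apart.

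The most abundant of these genes, Ldha, was at 1929, 3584 and 2283 CPM in ob/ob and at 1710, 1946 and 1893 CPM in CT ob. One ob/ob library lay within the range of CT ob, and the log2 difference was 0.48 ± 0.266 (adjusted p = 0.674). Pdha1 was at 23.6, 11.5 and 21.5 CPM in ob/ob and at 33.7, 37.4 and 16.7 CPM in CT ob, with overlap. Its log2 difference of -0.64 ± 0.383 (adjusted p = 0.684) had the same sign as in the db model, and the interaction was -0.16 (unadjusted p = 0.700).

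In the db model the groups overlapped for the tested genes that did not overlap in the ob model. There Fbp1 was at 20.9, 42.1, 32.9 and 29.7 CPM in db/db and at 20.3, 36.4, 19.8 and 18.8 CPM in CT db. Slc16a1 was at 295, 281, 304 and 297 CPM in db/db, within the CT db range of 238 to 361. G6pdx had an estimate in the db model (-0.38 ± 0.200, unadjusted p = 0.0831) near that in the ob model, and the interaction was -0.10 (unadjusted p = 0.727). Slc2a3, which failed the filter and was not tested, was lower without overlap in the mutants of both models. It was at 0 to 0.625 CPM in db/db against 0.639 to 1.97 in CT db, near the limit of detection. In ob/ob it was at 1.04 to 1.25 CPM against 1.72 to 5.10 in CT ob.

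**Figure D2:**
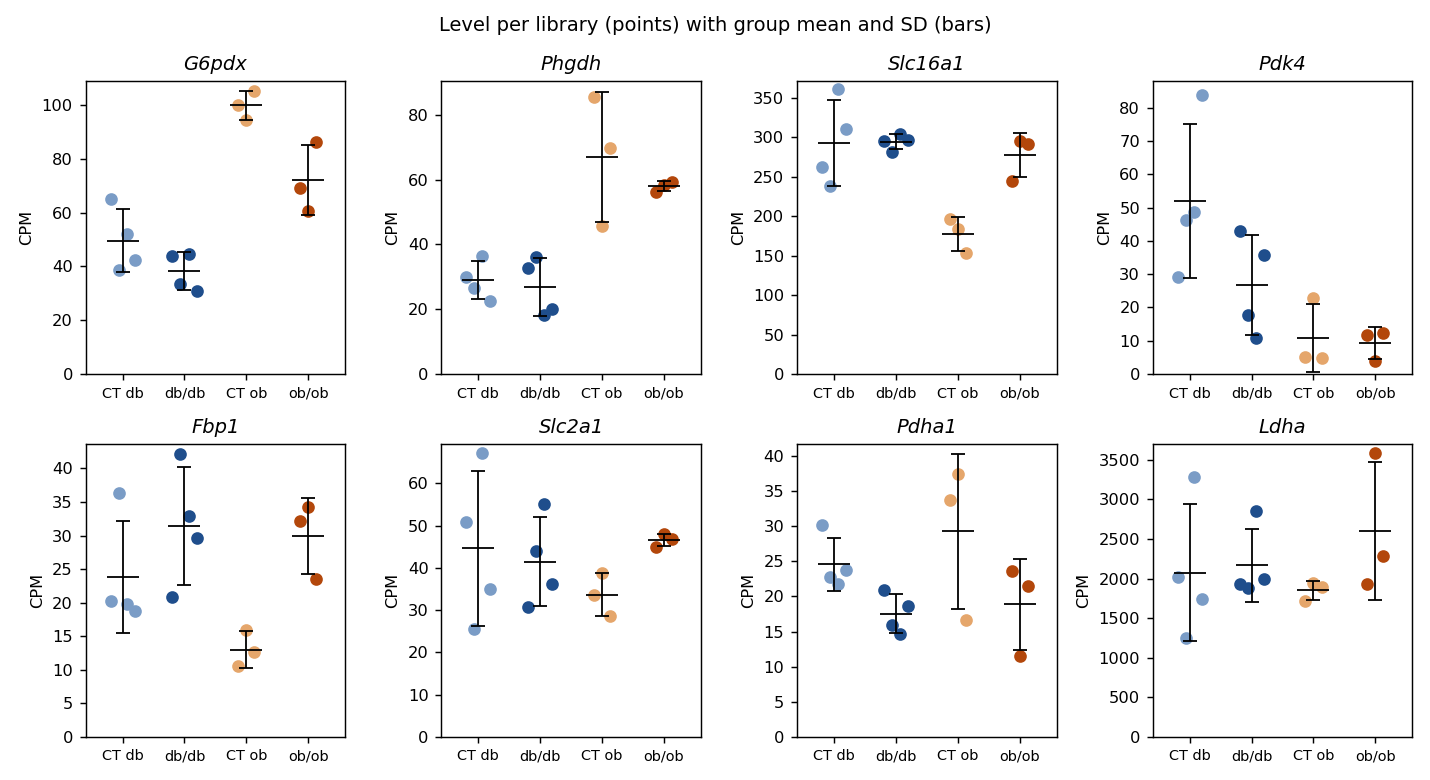
CPM of 8 genes in each library (points), with the group mean and SD (bars), for CT db, db/db, CT ob and ob/ob. G6pdx and Phgdh are higher on average in both ob groups than in both db groups, and the 3 CT ob libraries lie below all other libraries for Fbp1.

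Comparison of the mutant effects between the models used an interaction term in a fit of all 14 libraries. It gave 0 called of 33 and 0 of 12586 genes (0%) in edgeR, and 0 and 72 in DESeq2. At an unadjusted p under 0.05 there was 1 of 33, against 8.11% of all genes. This was Slc16a1, whose mutant effect was higher in the ob model by 0.63 ± 0.222 on the log2 scale (unadjusted p = 0.0122, adjusted p = 0.516). Its CT ob libraries, at 154 to 196 CPM, lay below all others, which ranged up from 238 in CT db, 281 in db/db and 245 in ob/ob. The same CT ob libraries enter this term, the ob comparison and that of the controls below, so these are not separate results.

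In a fit of all 14 libraries, more genes were called between the control groups of the models than between mutants and controls with each model fitted alone. These counts are not directly comparable, and far fewer genes were called with the control groups fitted alone, as given below. CT ob and CT db come from separate strains, so strain, colony and handling cannot be told apart from model. Over all 14 libraries edgeR called 834 of 12586 genes (6.63%), 282 higher in CT ob (2.24%) and 552 lower (4.39%). Of the 33 listed genes 4 (12.1%) were called, 2 in each direction. At an unadjusted p under 0.05 there were 10 (30.3%), against 26.9% of all genes, and 9 (27.3%) did not overlap between groups, against 21.2%.

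G6pdx was higher in CT ob, at the 3 values given above, than in CT db, where it was at 65.0, 38.8, 52.2 and 42.3 CPM. The log2 difference was 1.02 ± 0.195 with an adjusted p of 0.0139 in edgeR. Phgdh, the enzyme that takes 3-phosphoglycerate into serine synthesis, was at 85.5, 45.8 and 69.7 CPM in CT ob and at 30.1, 26.6, 36.5 and 22.7 CPM in CT db. It was higher by 1.21 ± 0.252 (adjusted p = 0.0170). Every CT ob library exceeded every CT db library for both genes.

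Slc16a1 was lower in CT ob than in CT db, where it was at 262, 238, 361 and 311 CPM, by a log2 difference of -0.71 ± 0.159 (adjusted p = 0.0229). Pdk4 was at 5.17, 22.7 and 4.76 CPM in CT ob, below all 4 CT db libraries. Its log2 difference of -2.24 ± 0.607 (adjusted p = 0.0426) came with a spread in CT ob from 4.76 to 22.7 CPM, the upper end near the lowest CT db library at 29.0. Tkt (0.57 ± 0.171, adjusted p = 0.0555) and Fbp1 (-0.88 ± 0.292, adjusted p = 0.0788) lay just outside the threshold, while DESeq2 called 6 listed genes with Tkt and Fbp1 added and the fit without a filter 6 with Fbp1 and Psat1 added. Another 4 listed genes had an unadjusted p under 0.05 with higher estimates in CT ob: Psat1 (0.71, adjusted p = 0.127), Pfkm (0.69, adjusted p = 0.125), Ldhb (0.54, adjusted p = 0.176) and Taldo1 (0.51, adjusted p = 0.159).

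Whether these genes passed the threshold depended on single libraries. Without CT ob library 3, the one rich in 18S reads, 0 of the listed genes passed, without CT db library 4 only G6pdx did (1), and without CT db library 2 or CT ob library 1 the calls were G6pdx and Slc16a1 (2). Pdk4 alone also lost its call without CT db library 3, db/db library 2 or 4, or ob/ob library 1 or 3. The log2 differences with each library left out ranged from 0.91 to 1.17 for G6pdx, from 0.99 to 1.42 for Phgdh, from -0.80 to -0.60 for Slc16a1 and from -3.37 to -1.88 for Pdk4. With the 2 control groups fitted alone 0 listed genes and 3 genes in all were called, and the log2 difference of G6pdx was then 1.0. The 13 granulosa markers summed to 12071 to 17265 CPM in CT ob against 19480 to 30268 in CT db, a sum to which Gja1 gave the most (5563 to 6934 against 12695 to 20835 CPM). Of the 13, 8 had negative and 5 positive estimates, with Gja1 (-1.47, adjusted p = 0.00221) and Fshr (-1.72, adjusted p = 0.0163) called lower and none called higher. Amh, made by GCs of smaller follicles, was at 445, 732 and 570 CPM in CT ob and at 498, 256, 104 and 82.2 in CT db. Oocyte markers summed to 115 to 1310 CPM in CT ob and to 42.3 to 318 in CT db, and endothelial markers to 24.5 to 48.3 and 5.63 to 12.6. Their part in the differences was not tested.

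The mutants of the 2 models were compared with each other in the same fit, on libraries that the controls' comparison did not contrast. Between ob/ob and db/db 0 of 33 listed genes were called, as were 2 of 12586 genes (0.0159%), and 3 listed genes (9.09%) had an unadjusted p under 0.05, against 8.18% of all. G6pdx was at 43.9, 33.5, 44.6 and 30.9 CPM in db/db, below every ob/ob library, with a log2 difference of 0.92 ± 0.199 (adjusted p = 0.322). Phgdh was at 56.3, 58.4 and 59.4 CPM in ob/ob against 32.8, 36.1, 18.2 and 20.0 in db/db, a log2 difference of 1.12 ± 0.256 (adjusted p = 0.322). Pdk4 was at 11.6, 3.88 and 12.4 CPM in ob/ob, a log2 difference of -1.53 ± 0.594 (adjusted p = 0.464). DESeq2 called G6pdx (adjusted p = 0.0237) and Phgdh (adjusted p = 0.0310), which edgeR did not. Oocyte markers moved with this comparison, summing to 235 to 976 CPM in ob/ob and 63.1 to 111 in db/db. All 11 tested had positive estimates (median 3.48, against -0.01 for all genes). In edgeR 10 of these markers had an unadjusted p under 0.05 (90.9%, against 8.18% of all genes), and none were called. Their part in the differences was not tested.

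**Figure D3:**
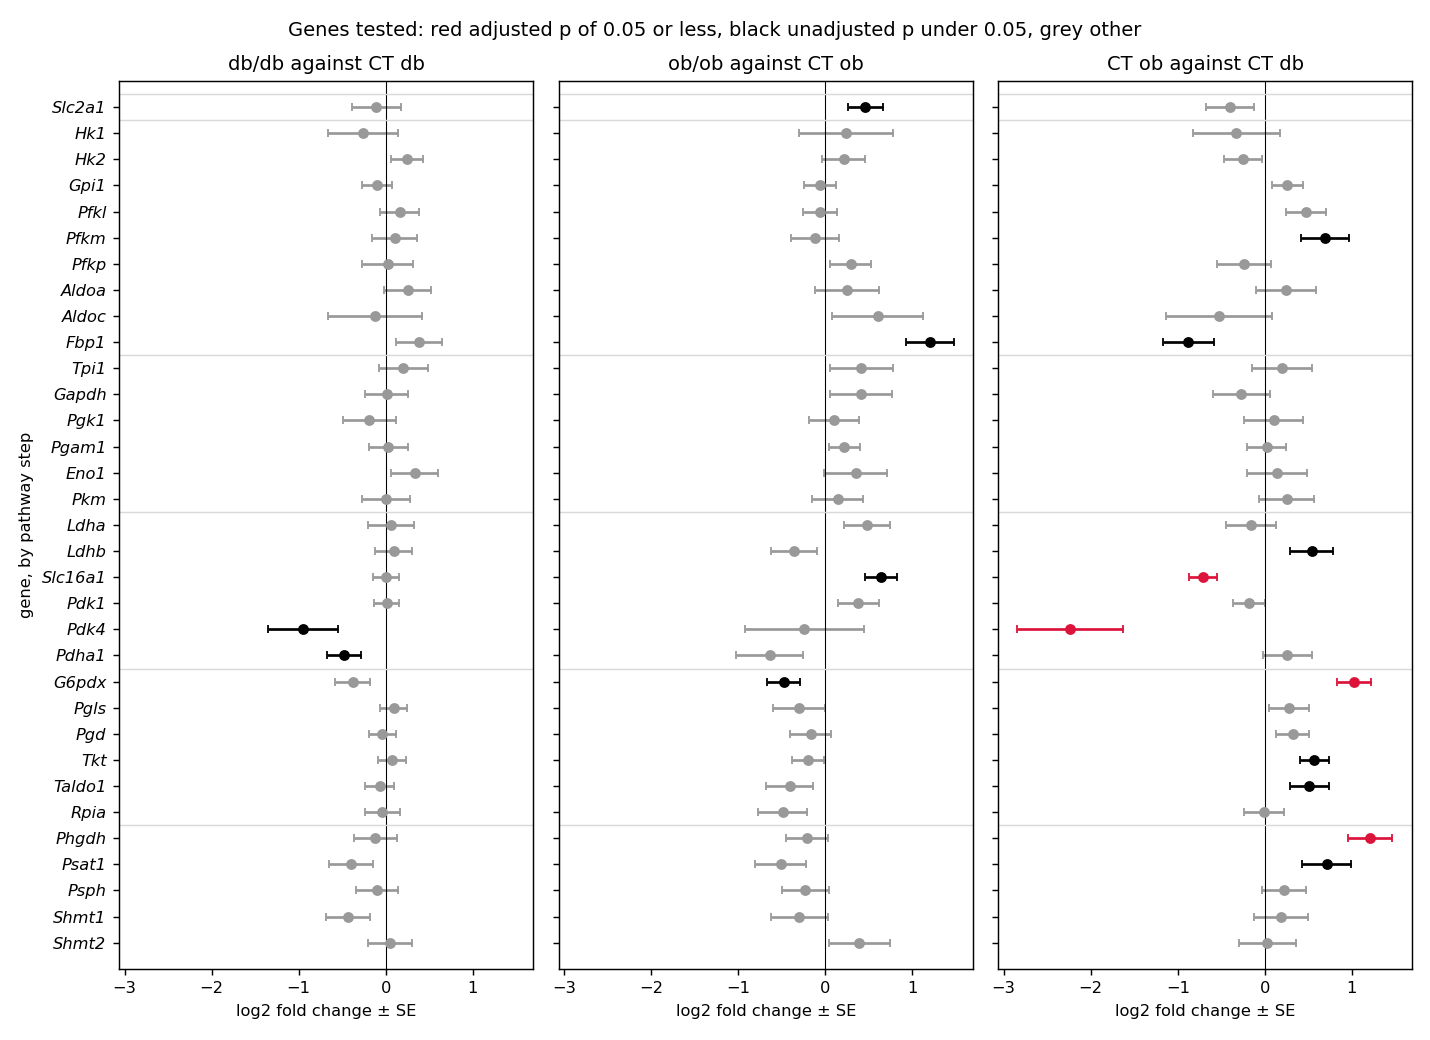
Log2 fold change with SE of the 33 genes tested in db/db against CT db, ob/ob against CT ob and CT ob against CT db, in pathway order with grey lines between steps. Red marks an adjusted p of 0.05 or less, found only for Slc16a1, Pdk4, G6pdx and Phgdh between the controls, and black an unadjusted p under 0.05.

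Shares between 2 genes of a library do not depend on its total, so 8 log2 ratios of length-scaled values were compared in 3 pairs of groups by exact two-sided permutation tests. None of the 24 passed after Benjamini-Hochberg adjustment, and the smallest adjusted p was 0.392. The test cannot give less than 0.1 for 3 against 3 libraries and 0.0286 for the other pairs. A single ratio could thus not pass after adjustment over 24 tests, so the absence of a call does not show that the ratios were alike. The log2 ratio of Ldha to Ldhb averaged 3.05 ± 0.697 in db/db and 2.95 ± 0.519 in CT db (SD, n = 4 each; exact permutation p = 0.80). It averaged 3.20 ± 0.933 in ob/ob and 2.34 ± 0.264 in CT ob (SD, n = 3 each; exact permutation p = 0.30). Shmt2 to Shmt1 averaged 2.27 ± 1.34 in ob/ob and 1.58 ± 0.651 in CT ob (exact permutation p = 0.60). Slc2a1 to Slc2a3 reached an unadjusted exact permutation p of 0.0286 between the controls (-1.84, lower in CT ob), where Slc2a3 had 9 to 16 counts in CT ob and 3 to 7 in CT db.

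Libraries of 1 group also differed from each other. Ldha ranged from 1252 to 3287 CPM in CT db, from 1880 to 2853 in db/db and from 1929 to 3584 in ob/ob, but only from 1710 to 1946 in CT ob. CT db library 3 was 0.75 above its group mean on the log2(CPM + 1) scale, ob/ob library 2 was 0.51 above and db/db library 3 was 0.42 above, while CT db library 2 was 0.64 below (-0.64) and ob/ob library 1 was 0.38 below (-0.38). Tpi1 was highest in the same 3 libraries, at 1259 CPM in CT db library 3, 1873 in ob/ob library 2 and 1215 in db/db library 3, against 436 in CT db library 2 and 748 in ob/ob library 1.

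To describe this, the level of each gene minus its group mean was correlated with that of Ldha over the 14 libraries. Ldha was chosen as the reference after its values had been seen. Of 32 listed genes 11 had a Pearson r of 0.8 or more, against 0.914% of 12585 genes, and the median r was 0.67 against -0.01 for all genes. The 11 were Tpi1, Aldoc, Pfkp, Pgam1, Gapdh, Pkm, Aldoa, Shmt2, Pfkl, Pgk1 and Pdk1, which span phosphofructokinase to pyruvate kinase and also hold a mitochondrial one-carbon enzyme and a kinase of pyruvate dehydrogenase. Over the 6 genes from the triose phosphates to pyruvate the median r was 0.90.

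**Figure D4:**
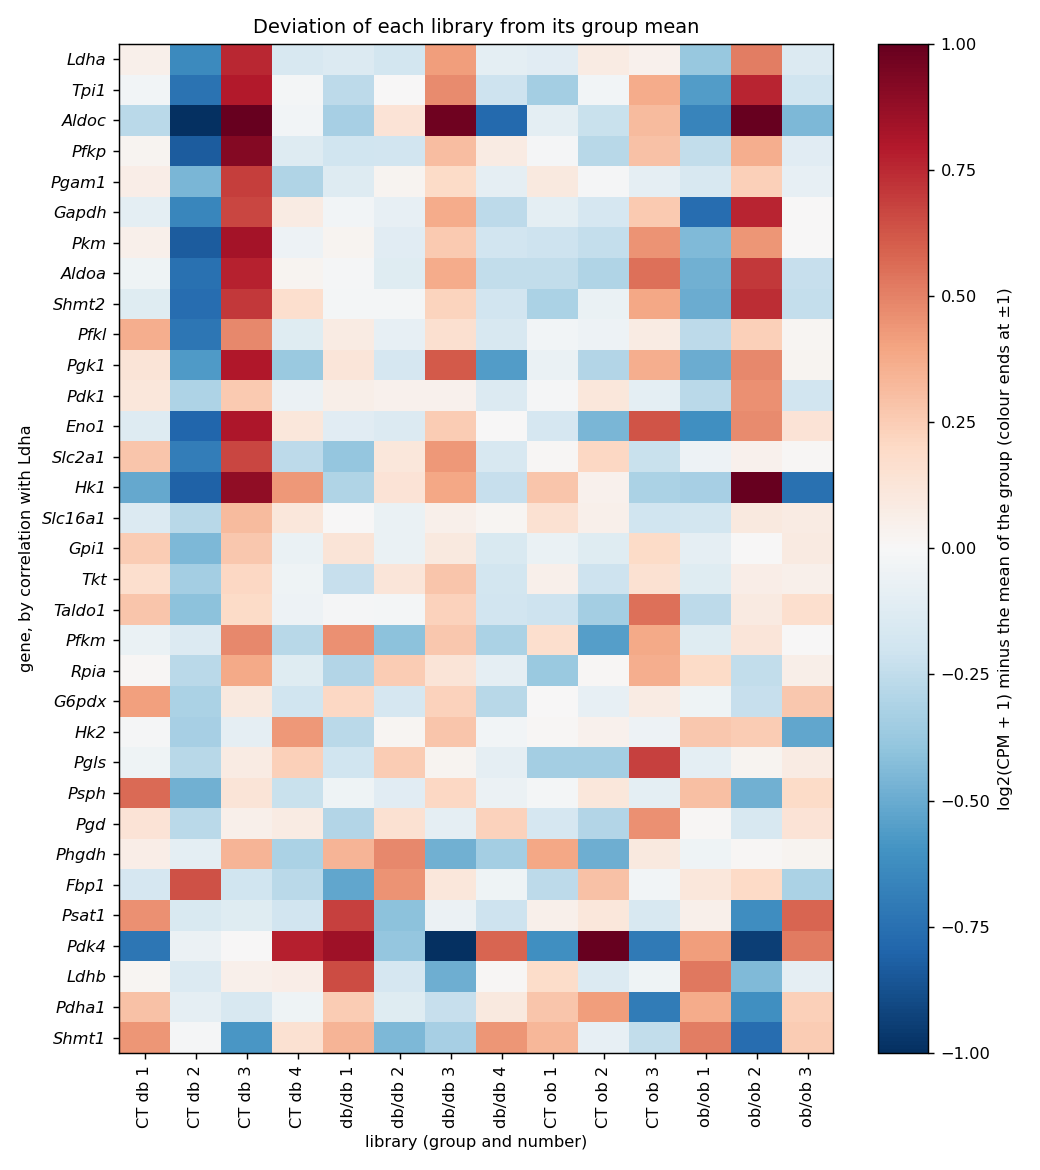
Level of each gene tested in each of the 14 libraries on the log2(CPM + 1) scale minus the mean of its group (red above, blue below, colour ends at 1 and -1), with genes ordered by their correlation with Ldha. CT db library 3, ob/ob library 2 and db/db library 3 are red down the upper rows and CT db library 2 and ob/ob library 1 are blue, while the lower rows show no such pattern or the opposite one. CT ob library 3 is also red in several upper rows (Aldoa 0.55, Tpi1 0.37), with Ldha at 0.04.

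Tpi1 had an r of 0.94 (exact permutation p = 0.00106, adjusted p = 0.0112) and a Spearman rho of 0.73 (exact permutation p = 0.0157, adjusted p = 0.0996). Shmt2 had an r of 0.88 (exact permutation p = 0.00231, adjusted p = 0.0112) and a rho of 0.66 (exact permutation p = 0.0392, adjusted p = 0.114). The permutations exchanged libraries within groups only, and adjustment was over the 32 relations. Over the 11 genes rho lay between 0.62 and 0.81, with unadjusted exact permutation p of 0.0069 to 0.0595, and no rho of the 32 passed after adjustment. Without the 2 libraries farthest from the median of Ldha (CT db library 3 and ob/ob library 2), r was 0.85 for Tpi1 and 0.70 for Shmt2, and 3 genes reached 0.8: Tpi1 and Pfkl (0.82) of the 11, and Slc2a1 (0.81). The count of 11 thus rested on those 2 libraries. Without them the median r of the 32 listed genes was 0.63 (0.67 with them). That of the genes from the triose phosphates to pyruvate was 0.76 (0.90 with them).

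In the pentose phosphate pathway Tkt had an r of 0.67 (adjusted exact permutation p = 0.0435) and Taldo1 of 0.54, while Pgd (6-phosphogluconate dehydrogenase) had 0.06 and G6pdx 0.30, and none of the 6 reached 0.8. In serine synthesis Phgdh had an r of 0.01 and Psat1 of -0.23. Ldhb had -0.41, Pdha1 -0.41 and Pdk4 -0.35, and apart from Tkt none of these 8 passed the adjusted threshold. Shmt1 had an r of -0.64 (exact permutation p = 0.0495, adjusted p = 0.0880) and a rho of -0.47 (exact permutation p = 0.180), and r was -0.11 without the same 2 libraries. Without them G6pdx (0.71) and Psph (0.75) had a larger r than with them (0.30 and 0.16), so the order of the branches also depended on those libraries.

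**Figure D5:**
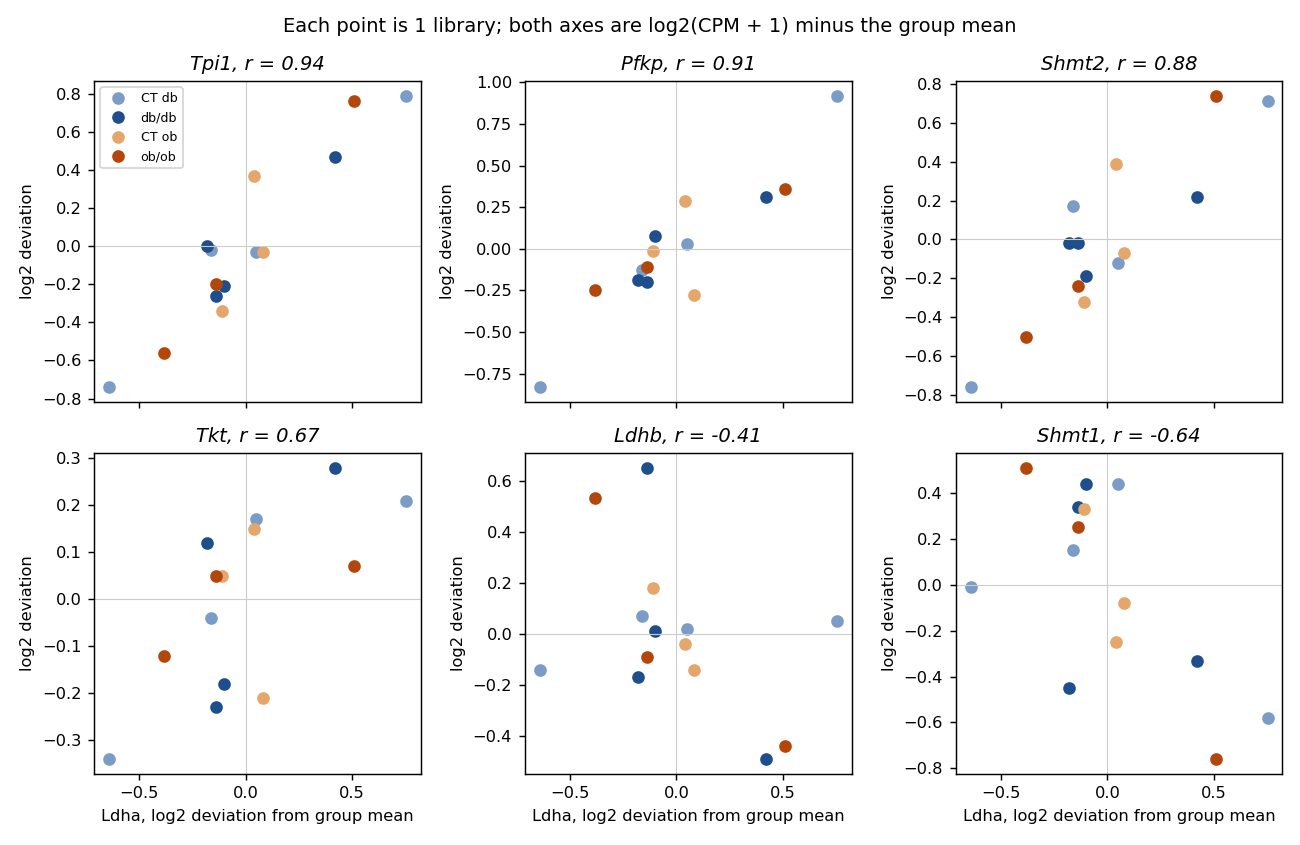
Deviation of 6 genes from their group mean against that of Ldha, both as log2(CPM + 1), with 1 point per library coloured by group and r in each title. Tpi1 (0.94), Pfkp (0.91) and Shmt2 (0.88) rise with Ldha, Tkt (0.67) does so less, and Ldhb (-0.41) and Shmt1 (-0.64) slope down.

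Genes of related processes were given the same measure, and those named here were picked after their r had been seen. The lactate exporter Slc16a3 (MCT4) had an r of 0.93, at 36.2, 80.9, 128 and 46.9 CPM in db/db, 30.7, 14.5, 179 and 44.0 in CT db, 23.5, 185 and 34.5 in ob/ob and 25.3, 30.1 and 36.7 in CT ob. Bsg (basigin), which brings such transporters to the membrane, had an r of 0.82. Of 12 genes of the hypoxia response that passed the filter the median r was 0.67 (0.23 without CT db library 3 and ob/ob library 2), with the collagen prolyl hydroxylases P4ha1 (0.92) and P4ha2 (0.87) at 0.8 or more, while Hilpda had -0.60 (-0.07 without those libraries). The 13 granulosa markers had a median r of 0.39 (0.27 without those libraries), from -0.50 for Amhr2 to 0.82 for Cyp19a1. Of these markers 4 had a negative r and only Cyp19a1 reached 0.8. The 11 oocyte markers had a median r of -0.05 (-0.40 without those libraries). Cyp19a1, which makes oestradiol in mature antral follicles, was at 19.6, 23.2, 105 and 6.56 CPM in db/db, 19.4, 15.5, 106 and 29.8 in CT db, 17.9, 83.6 and 32.8 in ob/ob and 10.5, 17.7 and 16.3 in CT ob. Slc16a3 and Cyp19a1 were highest in the same library as Ldha in db/db, CT db and ob/ob. Without CT db library 3 and ob/ob library 2, r was 0.68 for Cyp19a1, 0.78 for Slc16a3, 0.57 for Bsg, 0.74 for P4ha1 and 0.69 for P4ha2.

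With all groups pooled, depth and 18S content overlapped between libraries in which Ldha lay above and below its group mean. Within CT db neither overlapped. Its libraries 1 and 3, above the mean, had 3624237 and 3655759 counts and 18S shares of 8.12 and 4.69%. Libraries 2 and 4, below it, had 4840714 and 3807338 counts and 1.61 and 3.43%. In ob/ob, library 2, above the mean, had 6907152 counts and 1.30%. Libraries 1 and 3, below it, had 5306632 and 8367593 counts and 1.45 and 9.12%. The part of depth, 18S content, follicle stage, cell mixture or handling in the pattern was not tested. No source used here gives a batch for a library.

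Wider lists of the same metabolism held no called gene within either model. Over all genes, 1 of 11317 (0.00884%) was called in the db model and 0 of 12425 (0%) in the ob model. No list could thus hold a called gene in the ob model. Of 13 other glycolysis genes tested in the db model 5 were higher and 8 lower in estimate, with a median log2 difference of -0.01 that changed sign with the library left out, and of 17 serine, glycine and folate genes in the ob model 6 were higher and 11 lower, with a median of -0.26 (-0.09 without CT ob library 3). The smallest unadjusted p in the ob model was that of Pdp1, the phosphatase that switches pyruvate dehydrogenase on (-1.31, unadjusted p = 0.00174, adjusted p = 0.539). In the db model it was that of Pdk3 (-0.65, unadjusted p = 0.00485, adjusted p = 0.462). The ob model's 12 hypoxia genes had a median of 0.55, or 0.22 without ob/ob library 2, and the 8 ATF4 targets a median of -0.33, or -0.03 without it, with none called. Between the controls 2 of the 109 genes of these 8 lists that were tested were called (1.83%, against 6.63% of all genes): Pdk2, another pyruvate dehydrogenase kinase, was higher in CT ob (1.05, adjusted p = 0.0424) where Pdk4 was lower, and Mxi1 was lower (-0.95, adjusted p = 0.0456).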

How the data were processed

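RNA-seq counts of granulosa cells from 14 libraries (db/db 4, CT db 4, ob/ob 3, CT ob 3) were analysed. The authors deposited raw whole-number counts per Ensembl gene, from single reads of 75 bases without molecular identifiers, so that limits from counts cover counting error only. The study's methods name cutadapt, STAR, GRCm39 and featureCounts, whereas the submitters' processing notes name Trim Galore 0.6.2, HISAT2 2.1.0 and GRCm38. The strand setting and the treatment of multi-mapping reads are not given in the sources used here, so overlapping or near-identical genes may share reads. Columns were assigned to groups by name, and library numbers follow the table's column order.

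The listed genes, lists and tests were chosen with earlier results of these data known. Symbols, positions and lengths came from GENCODE M39 (GRCm39), which matched 54749 identifiers. edgeR 4.0.16 in R 4.3.3 was run with TMM scaling, filterByExpr (minimum count 10, minimum total 15) and the quasi-likelihood F test, with Benjamini-Hochberg adjusted p of 0.05 or less called over all genes tested. Each model was fitted alone, and comparisons across models used 1 fit of 14 libraries. On simulated data 91% of 4-fold and 54.5% of 2-fold changes were called with the design of db/db against CT db, 70.5% and 0% for ob/ob against CT ob and 81% and 32% for the controls. Deviations within groups used log2(CPM + 1), and ratios had 1 count added to both genes. Listed genes were given with values per library when they were called, had an unadjusted p under 0.05 within a model, led their step or entered a ratio, and at most 3 genes of smallest p were named per wider list. Alternatives were DESeq2 1.42.0, RLE, upper quartile or no scaling beyond totals, no filter or a stricter one, robust dispersion, omission of Rn18s-rs5, other sets of libraries per fit, each library left out, other lengths and, chosen after seeing the data, Spearman correlation and another reference gene.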

Additional observations from a re-analysis of the deposited data

Results flagged for a closer look

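With groups of 4 libraries, 4 values among 66 groups looked at lay far from the other 3 by Dixon's criterion, which flags about 1 in 20 groups by chance. Ldha was at 2853 CPM in db/db library 3 and at 1880 to 1989 in the others of that group. Fbp1 was at 36.4 CPM in CT db library 2, the library with the lowest Ldha, and at 18.8 to 20.3 in the other 3. Pdk1 was lowest in db/db library 4, at 98.7 CPM against 113 to 114. Psat1 was highest in CT db library 1, at 66.7 CPM against 42.3 to 44.2.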

How the results depend on the processing

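No paired analysis was possible because the columns of the count table carry no replicate numbers. Between db/db and CT db, listed genes called stayed at 0 except without a filter on low counts (1, Pdk4). All genes called were 1 in edgeR, 44 in DESeq2, 270 without a filter and 0 to 4 otherwise. Between ob/ob and CT ob, DESeq2 and the fit without a filter called 1 listed gene each (Fbp1), with 86 and 359 genes in all against 0 to 1 otherwise. Between ob/ob and db/db, DESeq2 called 2 listed genes and the fit without a filter 3, with 72 and 535 genes in all against 1 to 4 otherwise. The interaction called 0 listed genes under every alternative, with 72 genes in all in DESeq2, 329 without a filter and 0 to 1 otherwise.

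Between CT ob and CT db, 4 listed genes were called, 2 with library totals only (261 genes in all), 0 with the 2 groups fitted alone (3), and 0 to 5 with each library left out (112 to 1196). Genes called in all were 1563 in DESeq2 and 1727 without a filter. With each library left out, listed genes called within a model, between mutants or by the interaction stayed at 0 (0 to 0). The ratios past the adjusted threshold also stayed at 0, a threshold that a single ratio could not reach. Genes with an r of 0.8 or more with Ldha numbered 11, 1 by Spearman, 3 without the 2 farthest libraries and 10 to 14 with each library left out. The log2 difference of Ldha to Ldhb in the db model ranged from -0.21 to 0.36 with each library left out, at -0.21 without db/db library 3 and -0.07 without CT db library 2. That of Shmt2 to Shmt1 in the ob model ranged from -0.06 to 1.21, at -0.06 without ob/ob library 2. In the ob model the median of the 6 genes from the triose phosphates to pyruvate ranged from -0.06 (without ob/ob library 2) to 0.48, and that of the pentose phosphate genes from -0.48 to -0.09. The median of other glycolysis genes in the db model ranged from -0.12 to 0.02, at 0.01 without db/db library 3 and 0.02 without CT db library 1. No alternative turned the sign of the genes called or with an unadjusted p under 0.05 within a model, in those comparisons, and other single genes were not followed, beyond the signs counted within these lists. The cause of these changes was not tested.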
